A study of Cricetulus griseus with 9 samples.

Results

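Collagen genes of types VI, VII, XV and XVIII were followed in CHO-K1 cells given more or less of the microRNA miR-29. The 7 genes set for description were Col6a1, Col6a2, Col6a3, Col7a1, Col12a1, Col15a1 and Col18a1, taken from the table by their mouse Ensembl identifiers. Of these, 5 were analysed, out of 15557 genes measured in all. Col6a3 (ENSMUSG00000048126) and Col12a1 (ENSMUSG00000032332) were not analysed here, so nothing is said of their expression.

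CHO-K1 is an established line of Chinese hamster ovary cells. RNA was sequenced from cells that received pre-miR-29b-1 or pre-miR-29a, which are precursors, or the inhibitor anti-miR-29a, with 3 libraries for each molecule, taken 48 h after lipid transfection. All groups are the same unmodified line in the same charcoal-stripped serum medium. A pre-miR is a synthetic precursor that raises its microRNA, and the anti-miR is an inhibitor that, per the submitters, blocks miR-29b-1 as well as miR-29a. The comparisons ask which transcripts respond to miR-29 and whether its family members differ. Cells given neither kind of molecule were not analysed here, so a difference between a pre-miR and the anti-miR does not say which of them moved. Both pre-miR groups are set against the same 3 anti-miR-29a libraries. A lower level can mean less RNA per cell or fewer cells that make it, and these libraries cannot tell these apart.

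Collagens are built from 3 chains wound into a triple helix, which requires a glycine at regular steps along the helical stretch. The collagens described here are not the ones that build the bulk fibrils of tendon or bone. Collagen VI forms beaded microfilaments at the cell surface, collagen VII forms the anchoring fibrils below epithelia, collagen XII coats fibrils, and collagens XV and XVIII are multiplexins of basement membrane zones. MiR-29 is known in mammals for lowering many extracellular matrix transcripts, among them fibrillar and type IV collagens.

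The collagen gene with the highest level was Col7a1, and the level fell steeply from there through the 5 genes. Levels are in FPKM, fragments per kilobase scaled for library size, so they can be set side by side between genes. Over the 9 libraries, Col7a1 lay between 31.7 and 59.5 FPKM, Col6a1 between 10.1 and 14.6 FPKM, and Col18a1 between 1.15 and 2.46 FPKM. Col6a2 lay between 0.0369 and 0.153 FPKM and Col15a1 between 0.0300 and 0.108 FPKM. The order Col7a1, Col6a1, Col18a1 and then the other two held in 9 of 9 libraries without overlap, whereas Col6a2 was above Col15a1 in 7 of 9 and their ranges overlap. Among the 15557 genes, Col7a1 ranked between 3429 and 5139, Col6a1 between 7185 and 7869, and Col18a1 between 9076 and 9332.

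The 3 libraries of a group are not said to come from separate cultures. The p-values therefore reflect how these libraries vary, which may be technical. Implied depth averaged 20800000 ± 1150000 reads (SD, n = 3) in the pre-miR-29b-1 group, 19000000 ± 1360000 reads in the pre-miR-29a group and 17600000 ± 1510000 reads in the anti-miR-29a group. The pre-miR-29a libraries were the furthest from their group mates. Replicate 1 differed from the mean of its mates by a median of 0.14 on the log2(FPKM + 1) scale over all tested genes. Replicate 2 differed by 0.11 and replicate 3 by 0.080, against 0.052 to 0.079 in the libraries of the other groups.

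Col6a1 was higher with either pre-miR than with anti-miR-29a. It encodes a chain of collagen VI, which links cells to the surrounding interstitial matrix. Col6a1 stood at 12.9, 14.0 and 13.2 FPKM with pre-miR-29b-1 (replicates 1 to 3), at 14.6, 11.9 and 11.1 FPKM with pre-miR-29a, and at 10.1, 10.3 and 10.6 FPKM with anti-miR-29a. Each pre-miR library lay above each anti-miR-29a library, and the highest value of all was in pre-miR-29a replicate 1. These values rest on 470 to 823 reads per library.

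With pre-miR-29b-1, Col6a1 averaged 13.4 ± 0.60 FPKM, against 10.3 ± 0.26 FPKM with anti-miR-29a (SD, n = 3 each), a ratio of 1.30. Its log2 fold change was 0.35 (SE 0.093), and the adjusted p was 0.00988 (limma on log2(FPKM + 1), Benjamini-Hochberg over the 9504 genes whose mean reached 1 FPKM). It stayed past the threshold of 0.05 without any 1 library, with adjusted p up to 0.0411 (limma). With pre-miR-29a, Col6a1 averaged 12.5 ± 1.86 FPKM, against the same 10.3 ± 0.26 FPKM, a ratio of 1.21. The log2 fold change was 0.25 (SE 0.093, adjusted p 0.0423, limma). That call was close to the threshold. It was kept without pre-miR-29a replicate 2 or 3 and lost without any of the other 7 libraries, with adjusted p between 0.0542 and 0.101 (limma). Among these 7 are the pre-miR-29b-1 libraries, which do not enter this fold change but share in the spread of the fit. Without any 1 of them the log2 fold change stayed at 0.25. Without pre-miR-29a replicate 1 the log2 fold change was 0.14 with an adjusted p of 0.0936 (limma). With array weights, which count less reliable libraries less, it was 0.10 with an adjusted p of 0.150 (limma), and over all alternatives the call was made in 9 of 19.

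**Figure D1:**
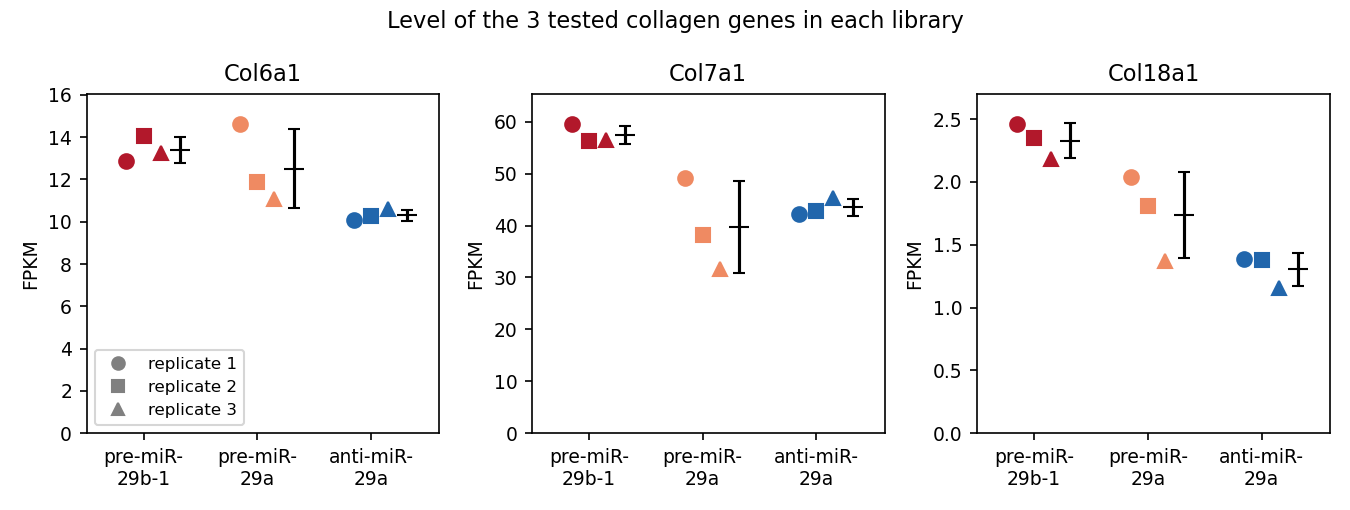
FPKM of Col6a1, Col7a1 and Col18a1 in each of the 9 libraries, by group, with circles, squares and triangles for replicates 1, 2 and 3 and a black bar for the mean ± SD of 3 libraries. The pre-miR-29b-1 libraries lie above the anti-miR-29a libraries for all 3 genes, and the pre-miR-29a libraries spread widely, with Col7a1 at 49.2, 38.1 and 31.7 FPKM.

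Col6a2, which encodes the chain that pairs with the Col6a1 product in the collagen VI heterotrimer, was at the edge of detection in every group. It had 9, 8 and 8 reads on its model in the pre-miR-29b-1 libraries, 3, 7 and 6 reads in the pre-miR-29a libraries, and 5, 7 and 2 reads in the anti-miR-29a libraries. In FPKM this was 0.143, 0.142 and 0.133 in the pre-miR-29b-1 libraries, 0.0532, 0.122 and 0.119 in the pre-miR-29a libraries, and 0.0961, 0.153 and 0.0369 in the anti-miR-29a libraries. The 3 groups overlap.

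Col6a2 therefore made up only a small share of the summed Col6a1 and Col6a2 level. Its share was 1.03% ± 0.058 in the pre-miR-29b-1 group, 0.815% ± 0.39 in the pre-miR-29a group and 0.919% ± 0.56 in the anti-miR-29a group (SD, n = 3 each). Put as a ratio of levels per length, Col6a1 exceeded Col6a2 by 67.1-fold to 287-fold in single libraries, and both extremes were anti-miR-29a libraries with 7 and 2 reads on Col6a2. The gene models of the pair have the same coding length, 3081 bases, and neither shares exon bases with another model. The models cover only hamster sequence to which a mouse protein could be aligned. A wrongly placed stretch counted in a model's length would lower its level in all groups alike, and this was not tested.

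Col7a1 was higher with pre-miR-29b-1 than with anti-miR-29a, and with pre-miR-29a its difference from anti-miR-29a did not pass the test. It encodes the single chain of collagen VII, the anchoring fibril protein of skin and other epithelia. Col7a1 stood at 59.5, 56.4 and 56.4 FPKM with pre-miR-29b-1, at 49.2, 38.1 and 31.7 FPKM with pre-miR-29a, and at 42.2, 42.8 and 45.3 FPKM with anti-miR-29a. The pre-miR-29b-1 libraries are above all 6 others. The pre-miR-29a libraries fall on both sides of anti-miR-29a, with replicate 1 above and replicates 2 and 3 below. At 4767 to 11224 reads per library, counting error is small beside these gaps.

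With pre-miR-29b-1, Col7a1 averaged 57.4 ± 1.77 FPKM, against 43.5 ± 1.65 FPKM with anti-miR-29a (SD, n = 3 each), a ratio of 1.32. The log2 fold change was 0.39 (SE 0.12, adjusted p 0.0215, limma). The call was lost without pre-miR-29b-1 replicate 1 (adjusted p 0.0618, limma), anti-miR-29a replicate 1 (0.0588, limma) or anti-miR-29a replicate 2 (0.0561, limma). Without any 1 library, the log2 fold change stayed between 0.37 and 0.42. With only the groups compared the adjusted p was 0.000267, and without pre-miR-29a replicate 1 it was 0.00109 (limma). Over all alternatives the call was made in 16 of 19. With pre-miR-29a, the mean was 39.7 ± 8.86 FPKM, against 43.5 ± 1.65 FPKM, a log2 fold change of -0.15 with a 95% interval of -0.43 to 0.13 and an adjusted p of 0.320 (limma). Without pre-miR-29a replicate 1 it was -0.31 with an adjusted p of 0.00657 (limma), a call of lower Col7a1.

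The spread of Col7a1 within the pre-miR-29a group was wide. Its SD there was 0.31 on the log2(FPKM + 1) scale, place 415 from the widest of 9504 tested genes, where the median gene had 0.11. In the pre-miR-29b-1 group it was 0.043 and in the anti-miR-29a group 0.053, both below the median gene of the group. The SE and intervals of the main fit pool the spread of all groups, so they do not reflect this inequality. Col6a1 and Col18a1 were also highest in pre-miR-29a replicate 1 and lowest in replicate 3 of that group, an order that 14.4% of tested genes showed. Whether pre-miR-29a replicate 1, the library furthest from its group mates, accounts for this order was not tested.

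**Figure D2:**
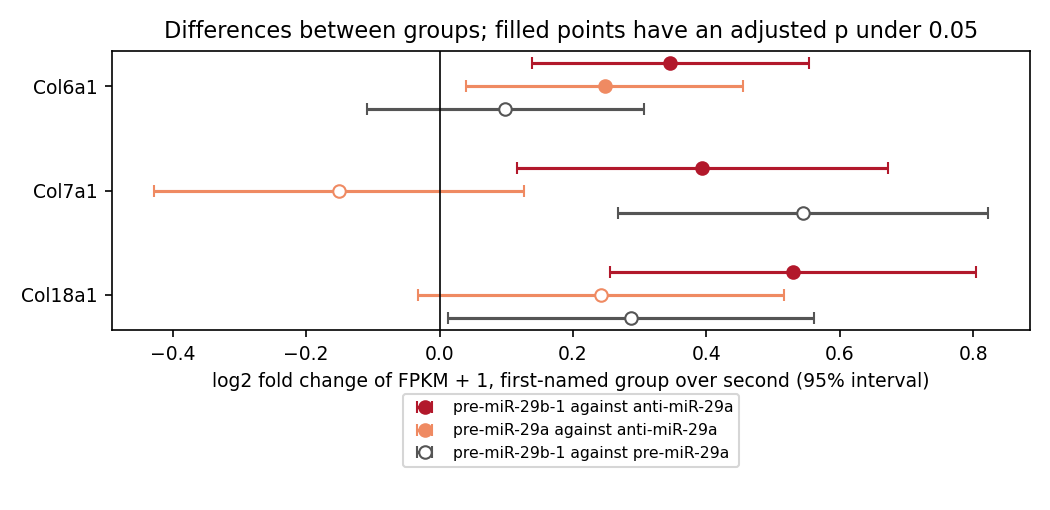
Log2 fold change of FPKM + 1 with its 95% interval (limma) for Col6a1, Col7a1 and Col18a1 in 3 comparisons, first-named group over second. Filled points passed an adjusted p of 0.05, which held for all 3 genes with pre-miR-29b-1 over anti-miR-29a and for Col6a1 alone in the comparison of pre-miR-29a with anti-miR-29a.

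Among the multiplexins, Col18a1 was higher with pre-miR-29b-1, while Col15a1 was hardly detected. The C-terminal part of the Col18a1 product is known as the source of endostatin, an inhibitor of vessel growth. Col18a1 stood at 2.46, 2.35 and 2.18 FPKM with pre-miR-29b-1, at 2.04, 1.81 and 1.37 FPKM with pre-miR-29a, and at 1.39, 1.38 and 1.15 FPKM with anti-miR-29a. The pre-miR-29b-1 libraries lie above all others, and pre-miR-29a replicate 3 lies within the anti-miR-29a range. The values rest on 111 to 275 reads per library.

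Col18a1 averaged 2.33 ± 0.14 FPKM with pre-miR-29b-1, against 1.31 ± 0.13 FPKM with anti-miR-29a (SD, n = 3 each). The ratio of these means is 1.78. The log2 fold change was 0.53 (SE 0.12, adjusted p 0.00458, limma), and adding 1 FPKM before the logarithm makes it smaller than the ratio. It passed under each of the 18 alternatives that tested it, with adjusted p up to 0.0242 (limma), while the log2 fold change ran between 0.22 with a pseudocount of 5 FPKM and 0.79 with one of 0.1 FPKM. Its place among the 3 tested collagen genes depends on these choices, since with quantile normalization it was 0.35, against 0.37 for Col6a1 and 0.48 for Col7a1. With pre-miR-29a the mean was 1.74 ± 0.34 FPKM, against 1.31 ± 0.13 FPKM, a ratio of 1.33 and a log2 fold change of 0.24 with a 95% interval of -0.032 to 0.52 and an adjusted p of 0.116 (limma). Without pre-miR-29a replicate 3 the adjusted p was 0.0387 (limma) and the log2 fold change 0.34.

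Col15a1 encodes the other multiplexin, a collagen that bridges basement membranes to nearby fibrils. It had 9, 4 and 7 reads in the pre-miR-29b-1 libraries, 6, 4 and 2 in the pre-miR-29a libraries, and 5, 2 and 3 in the anti-miR-29a libraries, with overlap between groups. Summed over a group and set per 1000000 implied reads, this is 0.321 with a 95% exact Poisson interval of 0.196 to 0.495 in the pre-miR-29b-1 group. It is 0.211 (0.109 to 0.368) in the pre-miR-29a group and 0.189 (0.0908 to 0.348) in the anti-miR-29a group. For Col6a2 the sums are 0.401 (0.259 to 0.592) in the pre-miR-29b-1 group, 0.281 (0.160 to 0.456) in the pre-miR-29a group and 0.265 (0.145 to 0.445) in the anti-miR-29a group. These intervals cover counting error only.

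Both genes were under the 1 FPKM filter and outside the main test. In a two-sided exact permutation test of mean FPKM over the 84 splits of 6 against 3 libraries, the pre-miR libraries against the anti-miR-29a libraries gave p = 0.476 for Col6a2 and p = 0.321 for Col15a1, with adjusted p = 0.476 for each. The smallest p such a test can give is 0.0119, and the test was added after the values were seen. The Col6a2 means were 0.119 FPKM with the pre-miRs and 0.0953 FPKM with anti-miR-29a, and the Col15a1 means were 0.0686 FPKM with the pre-miRs and 0.0491 FPKM with anti-miR-29a. A difference of the size seen for Col6a1 or Col7a1 lies within the counting intervals of both genes. The values therefore cannot show whether either gene has such a difference.

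The calls were then counted against all genes. With pre-miR-29b-1 over anti-miR-29a, 3 of the 3 tested collagen genes were called higher and 0 lower (limma). In that comparison 55.2% of the 9504 tested genes were called, 25.8% as higher, so a call by itself is common. The median log2 fold change was 0.39 over the 3 collagen genes and -0.0057 over all tested genes. By size of log2 fold change in either direction, Col18a1 took place 1924, Col7a1 place 2945 and Col6a1 place 3427 of the 9504 genes. All pre-miR-29b-1 libraries lay above all anti-miR-29a libraries for each of the 3 collagen genes, as they did for 32.3% of all tested genes.

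With pre-miR-29a against anti-miR-29a, Col6a1 was called higher and Col7a1 and Col18a1 were not called, which is 1 of 3, where 27.5% of tested genes were called higher and 58.4% in either direction. Col6a1 was also the one whose libraries did not overlap, with the pre-miR-29a libraries above, a pattern found in 29.1% of tested genes. The medians were 0.24 over the 3 genes and -0.016 over all tested genes. By size, Col6a1 took place 4927, Col18a1 place 5002 and Col7a1 place 6598. Averaging the pre-miR groups and setting them against anti-miR-29a, Col6a1 and Col18a1 were called higher, 2 of 3, beside 29.3% of tested genes called higher and 61.6% called at all. All 6 pre-miR libraries lay above the anti-miR-29a libraries for Col6a1, as for 25.4% of tested genes. The log2 fold change was 0.30 for Col6a1 (SE 0.080, adjusted p 0.00896, limma) and 0.39 for Col18a1 (SE 0.11, adjusted p 0.00985, limma). Col7a1 stood at 0.12 with an adjusted p of 0.347 (limma). By size these were places 4043, 3061 and 7003. The Col18a1 call ended with quantile normalization, at an adjusted p of 0.0556 (limma).

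The pre-miRs were also compared with each other, which tests whether the collagen genes differ between the family members. Col7a1 had the widest gap, 57.4 ± 1.77 FPKM with pre-miR-29b-1 against 39.7 ± 8.86 FPKM with pre-miR-29a, without overlap between the libraries. Its log2 difference was 0.54 (SE 0.12) with a 95% interval of 0.27 to 0.82, place 157 of 9504 tested genes by size. The adjusted p was 0.221, and 0.314 with only the groups compared (limma). The SE and interval use a spread pooled over all groups, while Col7a1 spread far more widely with pre-miR-29a than in the others. Col18a1 also did not overlap, with a log2 difference of 0.29, an interval of 0.013 to 0.56 and an adjusted p of 0.293 (limma). Col6a1 differed by 0.099, with an interval of -0.11 to 0.31 and an adjusted p of 0.591 (limma).

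So 0 of 3 were called between the pre-miRs (limma), where 0.0105% of tested genes, a single gene, were called. At an unadjusted p under 0.05 (limma), Col7a1 and Col18a1 passed, as did 1570 of the 9504 tested genes. For 10.2% of tested genes, as for Col7a1 and Col18a1, each pre-miR-29b-1 library lay above each pre-miR-29a library. The Col7a1 difference was called without pre-miR-29a replicate 1, at 0.71 with an adjusted p of 0.0186 (limma), and not without any other library. The intervals leave room for a Col6a1 or Col18a1 difference between the pre-miRs, so they do not show that the pre-miRs act alike on these genes.

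The 5 gene models were also described by the length of their coding exons. Exons of the helical part of a collagen gene tend to hold whole glycine triplets, and a triplet takes 9 bases. A high share of such lengths therefore comes with the choice of collagen genes and is no separate finding. In Col6a2, 18 of 27 coding exons had a length that is a multiple of 9, in Col7a1 66 of 113, in Col6a1 19 of 35, in Col18a1 16 of 42 and in Col15a1 12 of 39. Over the 1816 measured genes with at least 20 coding exons, 15.2% of exons had such a length, and the median gene had 13.6%. An exon here is a block of a model made by protein alignment. Some blocks are very short, such as 9 bases in Col6a1, counted as a multiple of 9, and 11 and 19 bases in Col18a1. Whether each block is a true exon was not tested.

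As shares, the values were 66.7% for Col6a2, 58.4% for Col7a1, 54.3% for Col6a1, 38.1% for Col18a1 and 30.8% for Col15a1, places 13, 18, 20, 37 and 57 of the 1816 genes. The collagen VI genes held the longest unbroken stretches of such exons, 15 in a row in Col6a1 and 13 in Col6a2. Col7a1 had at most 8 in a row, Col18a1 6 and Col15a1 3, while the median gene had 1. The most common such length was 63 bases in Col6a1 (7 exons), Col6a2 (8) and Col18a1 (5), and 36 bases in Col7a1 (23) and Col15a1 (4). The multiplexins are known for helices with many interruptions.

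**Figure D3:**
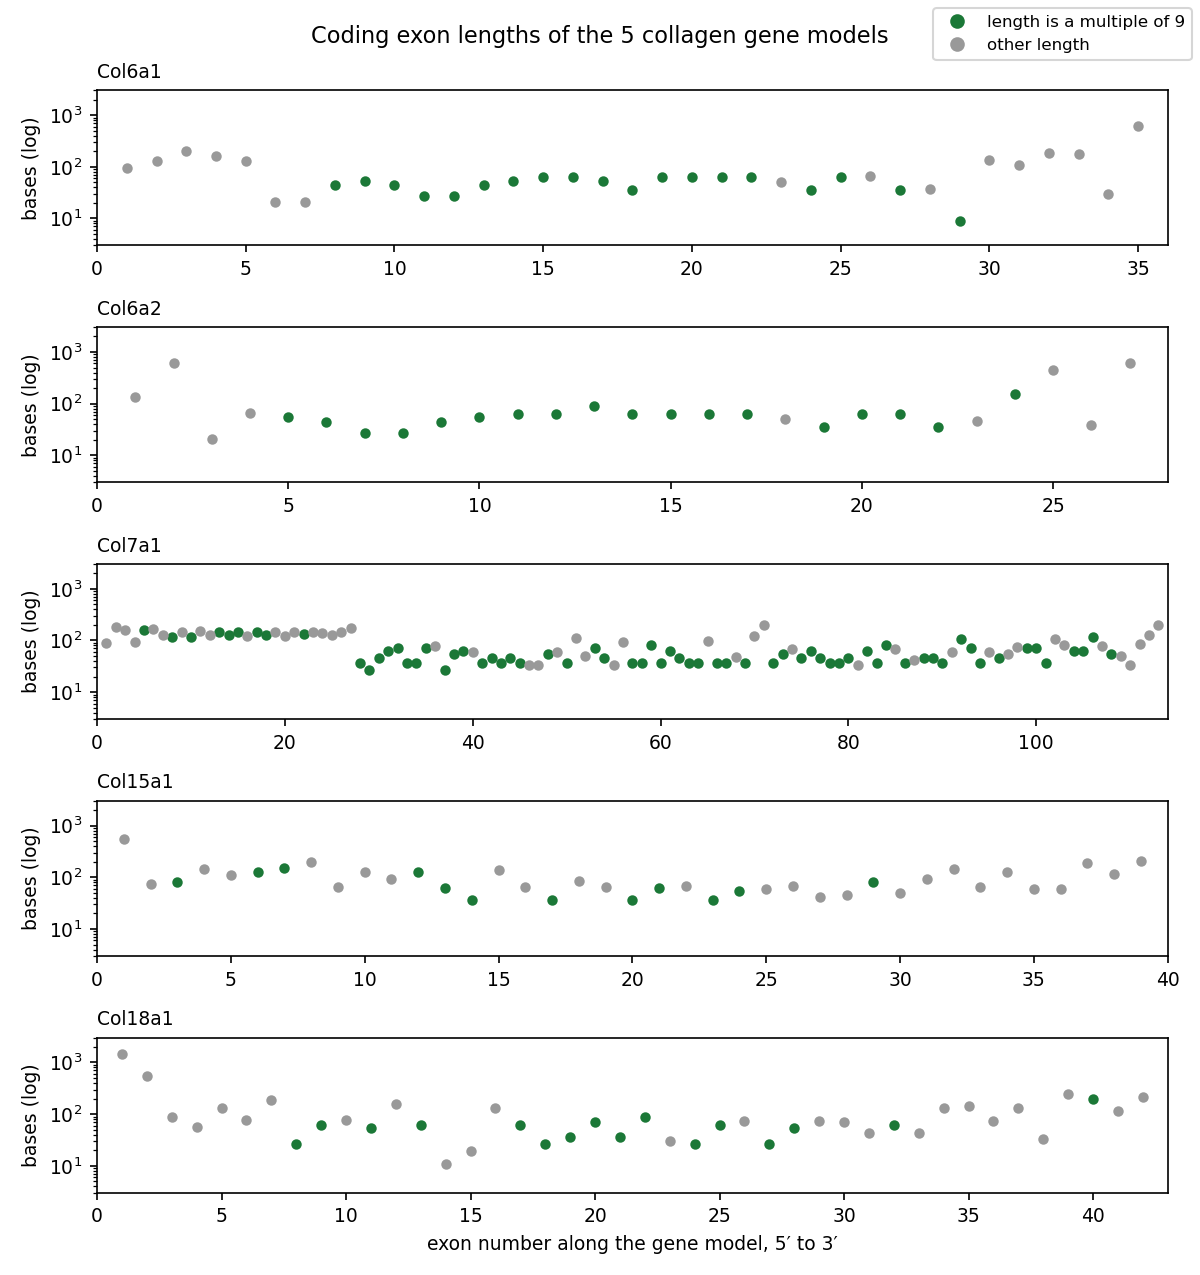
Length in bases (log axis) of each coding exon of the Col6a1, Col6a2, Col7a1, Col15a1 and Col18a1 models, numbered 5′ to 3′, with lengths that are multiples of 9 in green and other lengths in grey. Green points form a long block in the middle of Col6a1 (15 in a row) and Col6a2 (13 in a row), start in earnest at exon 28 of Col7a1 and are scattered in the multiplexins.

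On the hamster assembly CriGri_1.0, Col6a1, Col6a2 and Col18a1 lie on the same scaffold, JH000220, all on the minus strand. Col6a2 (ENSMUSG00000020241) spans 416015 to 434900, Col6a1 (ENSMUSG00000001119) 522698 to 538158, and Col18a1 (ENSMUSG00000001435) 821249 to 876046. No gene model lies in the 87797 bases between Col6a2 and Col6a1, and 1 lies in the 283090 bases between Col6a1 and Col18a1. RefSeq's table for another hamster assembly, CriGri-PICRH-1.0, lists genes with these symbols in the same order, with 0 genes between Col6a1 and Col6a2 and 6 between Col18a1 and Col6a1, of which 3 are protein coding. Col6a1 and Col6a2 are thus neighbours, and their levels differ by at least 67.1-fold in each library. Col7a1 (ENSMUSG00000025650) lies on JH000468 from 150213 to 181561 on the plus strand, with 8823 coding bases. Col15a1 (ENSMUSG00000028339) lies on JH000194 from 1878131 to 1947573 on the plus strand, with 4017 coding bases. It has 2 models, and the span, coding bases and exons given here are those of 1.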

How the data were processed

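The authors deposited 1 table of FPKM per gene and library and the gene models behind it. FastQC, TopHat2 2.0.13 (an aligner) and Cuffnorm (which gives the FPKM) are named, per the submitters' processing notes. Scaling, strand setting and filters are not stated in these sources. Per the labels' protocols, stranded mRNA libraries were made from 2 µg of RNA and read as single reads. Per the file headers, models are mouse Ensembl proteins aligned to CriGri_1.0. Their lengths are multiples of 3 in 99.87% of models, so they are coding lengths without UTRs.

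FPKM times (coding bases - 200) fell in steps of 1 read in 1156 long genes with single models: in each library, 100% of the values worth at most 5 reads came within 0.2 reads of an integer. These were 87 to 110 values per library, and the step and the 200 bases were chosen to bring such values closest to integers. The step gave 15905000 to 21885000 implied reads, in the unit Cuffnorm divided by.

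Tests used limma 3.58.1 (R 4.3.3) on log2(FPKM + 1), which understates changes of low genes, with a variance trend and all 9 libraries in 1 fit. Genes averaging at least 1 FPKM were tested. The fit was tested on simulated data in which few genes changed and all groups had equal spread, unlike these data. All 7 members are named by rule. The members and lists were chosen with earlier results of these data known. Symbols come with the member list; the identifiers matched no gene of the RefSeq table (0 of 32251), so lists of other matrix genes and cell type markers were not tested, and no sequences are shown.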

Additional observations from a re-analysis of the deposited data

How the results depend on the processing

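Alternatives changed the pseudocount, filter, scaling, variance model, library weights, the libraries fitted and, as a block, the replicate number. Counts of genes called against anti-miR-29a stayed within 1.5 times the main count under all of them. Without 1 library they were 4502 to 5736 (pre-miR-29b-1), 4862 to 5870 (pre-miR-29a) and 5098 to 6222 (the average of both). Between the pre-miRs, 1 gene was called, but 3627 with array weights, 0 with only the groups compared, 184 with the replicate block, and 1 to 1378 without 1 library, the highest without pre-miR-29a replicate 1.

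Of the collagen genes, 3 were called with pre-miR-29b-1 over anti-miR-29a, and 2 to 3 without 1 library. With pre-miR-29a, 1 was called, but 2 with no variance trend, 0 with no filter, 0 with only the groups compared, and 0 to 2 without 1 library. With array weights the count was again 1, but it was Col7a1, called lower, while Col6a1 was not called. For both pre-miRs 2 were called, but 1 with a filter at 5 FPKM, which leaves Col18a1 untested, and 1 with quantile normalization. Between the pre-miRs 0 were called, but 3 with array weights and 0 to 1 without 1 library. The array weights were 0.213 for pre-miR-29a replicate 1, 0.429 for replicate 2 and 3.54 for replicate 3. The weighted pre-miR-29a values therefore rest mostly on replicate 3, the library with the lowest Col7a1. With them Col7a1 turned to -0.031 for both pre-miRs, with an adjusted p of 0.699 (limma), was called lower with pre-miR-29a at -0.41 with an adjusted p of 0.000908 (limma), and differed between the pre-miRs by 0.77 with an adjusted p of 0.00236 (limma). The causes were not tested. The Col6a2 share was 0.996% to 1.05% with pre-miR-29b-1, 0.689% to 1.04% with pre-miR-29a and 0.645% to 1.21% with anti-miR-29a without 1 library. Deviations from the group means, compared between libraries with the same number, had r of -0.018 to 0.295, over 0.1 in 6 of 9 pairs, short of every pair, and the labels do not settle whether libraries with the same number share an experiment. The replicate block changed no call of a collagen gene, but some came close to the threshold. With it, the Col7a1 difference between the pre-miRs had an adjusted p of 0.0531, against 0.220 in the main fit (limma). Col6a1 with pre-miR-29a had 0.0486 (limma).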

Other observations

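The genes whose pattern over the 9 libraries was most like that of Col7a1 were ENSMUSG00000046168 and ENSMUSG00000037126, for which the files give no names. Likeness was the mean absolute difference of log2(FPKM + 1) after each gene was centred on its own mean. It was 0.080 and 0.084, where the median of the 9503 other tested genes was 0.28. ENSMUSG00000046168 averaged 1.76 FPKM with pre-miR-29b-1, 1.20 FPKM with pre-miR-29a and 1.35 FPKM with anti-miR-29a, and ENSMUSG00000037126 averaged 5.48, 3.91 and 4.15 FPKM in the same groups. Col18a1 took place 116 in this order and Col6a1 place 695. On scaffold JH000220, which holds Col6a1, Col6a2 and Col18a1, 19 genes were tested. With pre-miR-29b-1 over anti-miR-29a, 5 of them were called higher and 9 lower, and with pre-miR-29a 5 were called higher and 10 lower (limma). Those called higher include Col6a1 and Col18a1 with pre-miR-29b-1 and Col6a1 with pre-miR-29a. Among all tested genes, 25.8% were called higher and 55.2% in either direction with pre-miR-29b-1, and 27.5% and 58.4% with pre-miR-29a.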
